A study of Mus musculus with 12 samples.

Results

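The genotype by selenium diet interaction in the mouse liver was measured as a difference of differences: Scly KO minus wild-type (WT) on low selenium, less Scly KO minus WT on adequate selenium, on the log2 scale. A value above 0 means that the KO minus WT difference was higher on the low diet than on the adequate diet. All 12 libraries of the study entered the fit, and the interaction was tested in the 12009 of 24795 genes that had enough counts. The livers came from male mice. WT mice were C57BL/6N, and the Scly KO mice lacked the gene for selenocysteine lyase. From weaning, and for 8 weeks or longer, the animals ate chow whose selenium, supplied as selenite, was either 0.08 ppm (low, LS) or 0.25 ppm (adequate, MS). The 4 groups of 3 libraries were WT LS (S1 to S3), WT MS (S4 to S6), KO MS (S7 to S9) and KO LS (S10 to S12). Scly KO mice were kept as a homozygous colony and WT mice were bred apart from them, so genotype and colony cannot be told apart. The group size of 3 is given for mouse livers, and no source used here tells whether a library pools animals. The p-values cover only the spread among these 12 libraries.

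Selenocysteine lyase (SCLY) splits selenocysteine into alanine and selenide, and so returns selenium to the pool from which new selenoproteins are made in the liver. When dietary selenium is scarce, hepatocytes depend more on such recycling and spare some selenoproteins at the expense of others. A gene whose genotype difference depends on diet may cross over, with opposite differences on the 2 diets, or may differ between genotypes on 1 diet only.

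Total counts ranged from 4797067 in S1 to 11762165 in S12. Scly itself was present at 83.1, 77.5 and 73.1 CPM in WT LS, 92.2, 105 and 88.3 in WT MS, 4.97, 5.1 and 4.84 in KO LS and 6.35, 6.9 and 6.32 in KO MS, so every KO library was below every WT library. Its interaction was -0.10 (SE 0.25), with a 95% interval of -0.69 to 0.49. The albumin and apolipoprotein transcripts and other hepatocyte markers summed to 79078 CPM in S12 and to 100325 to 145831 CPM in the other libraries, where CPM is normalised counts scaled to a common library size by the TMM method. S12 stood furthest from the rest, with a mean Spearman correlation of 0.873 against 0.912 to 0.964. In S12 the biliary markers Epcam (211 counts against 2 to 12 elsewhere), Cftr (34 against 0 to 3) and Krt19 (90 against 2 to 17) were high. S7 and S8, both KO MS, carried 17% and 19.9% of their counts on Rn45s, the ribosomal RNA precursor, against 2.45% to 9.23% in the other 10 libraries.

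No gene passed a false discovery rate of 0.05 for the interaction with edgeR's quasi-likelihood test (0 of 12009, 0%), and the smallest adjusted p was 0.65. At an unadjusted p under 0.05 there were 808 genes (6.73% of those tested), of which 252 (2.1%) had an interaction above 0 and 556 (4.63%) one below 0. Of all genes tested 6414 (53.4%) had an interaction above 0 and 5595 below, and the counts of each list below are to be read beside these shares. DESeq2 also called 0 genes, with 934 (7.81%) at an unadjusted p under 0.05, 682 of them (5.71%) below 0. limma-voom without sample weights called 0, with 578 (4.81%). With sample quality weights limma-voom called 2081 genes (17.3%), 1239 above 0 (10.3%) and 842 below 0 (7.01%), and 4263 (35.5%) had an unadjusted p under 0.05. In that fit the 3 KO MS libraries had weights of 0.416 (S7), 6.67 (S8) and 0.199 (S9), so S8 stood for most of its group. Of these 2081 genes 541 were also at an unadjusted p under 0.05 in edgeR, which is 26% of the weighted calls and 67% of the 808. Because no gene passed the edgeR test, the interaction of each gene named below is a measured value with its standard error and is not called.

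Among the 808 genes the sign of the genotype difference turned between diets in 760 (94.1%), against 7269 of all 12009 (60.5%). In 47 the difference kept its sign and was larger on low selenium, and in 1 it was larger on adequate selenium. Seen from the other side, the diet difference was larger in size in Scly KO than in WT for 684 of the 808 (84.7%), against 8729 of all genes tested (72.7%). Both shares were taken from the contrasts that also make the interaction, so they describe the genes and test nothing. On low selenium 1351 genes (11.2%) had an unadjusted p under 0.05 for KO against WT, and on adequate selenium 111 (0.924%). Scly was the only gene called on each diet (1 of 12009, 0.00833%). Low against adequate selenium gave 2633 genes (21.9%) at that level in KO, 1110 of them (9.24%) higher, and 275 (2.29%) in WT, with 0 called in each. By the lack of overlap between libraries the order was not the same, since low and adequate libraries were apart in 1305 genes (10.9%) in KO and 1404 (11.7%) in WT.

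**Figure D1:**
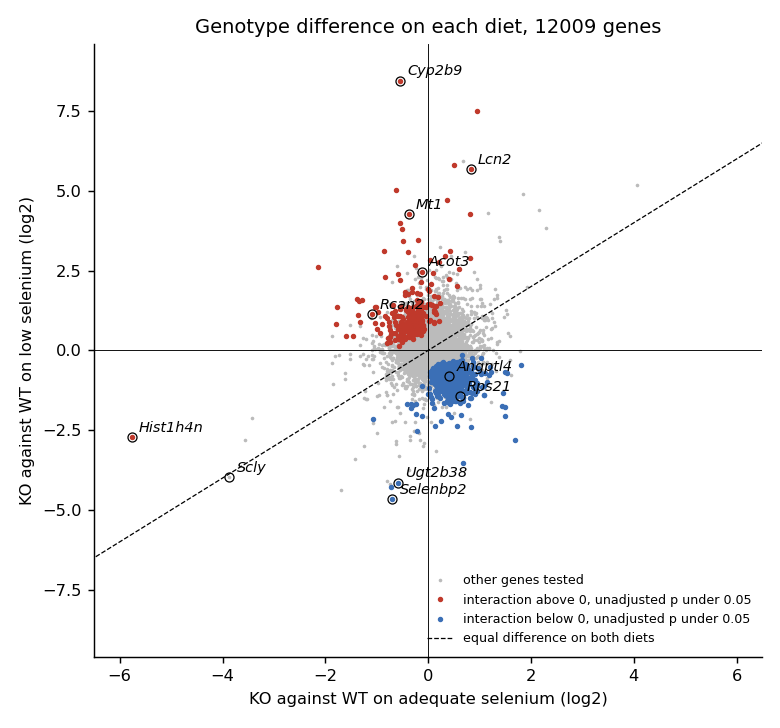
KO against WT on adequate selenium (horizontal axis, log2) and on low selenium (vertical axis, log2) for the 12009 genes tested, with each gene a point. Genes with an unadjusted interaction p under 0.05 lie away from the dashed line of equal differences, 252 above it (red) and 556 below it (blue), while Scly lies on it.

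These counts depended on single libraries, of WT as well as of KO MS. Without S9 the genes at an unadjusted p under 0.05 numbered 3594, and without S7 they numbered 299, the extremes among the 12 libraries left out in turn. They numbered 343 without S4 (WT MS), 351 without S1 (WT LS) and 485 without S8 (KO MS). With both S7 and S8 left out, so that S9 was the only KO MS library and was assumed to vary like the others, 138 genes remained at that level (1.04% of 13298), and 53 of them were among the 808. Leaving out S11 was the only omission of those run that gave calls in edgeR. These were Lcn2, Mt1 and Mt2, with adjusted p of 0.00353, 0.0452 and 0.0383 from edgeR. At the other end, 20 genes (2.48% of the 808) kept an unadjusted p under 0.05 and the same sign in every one of the 29 alternative fits that could test them, 13 above 0 and 7 below 0. These 20 were picked by p on the same libraries that the alternatives reuse, and some alternatives hardly differ from the main fit. Their holding is therefore no separate evidence.

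**Figure D2:**
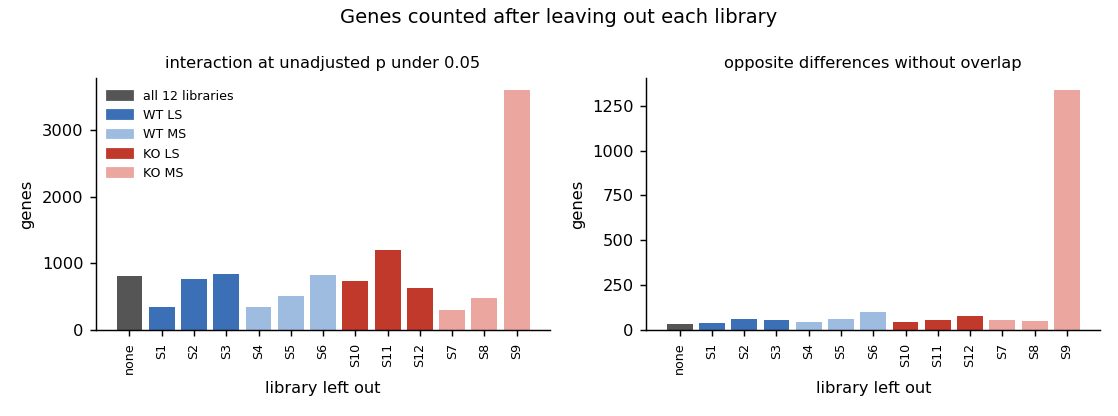
Number of genes at an unadjusted interaction p under 0.05 (left) and number of genes whose WT and KO libraries were apart in opposite directions on the 2 diets (right), with all 12 libraries (grey) and after leaving out each library in turn (bars coloured by group). Leaving out S9 gave 3594 and 1335 genes, against 808 and 31 with every library. The count on the right cannot fall when a library is left out, because fewer libraries are more easily apart.

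Mt1 and Mt2, which encode metallothioneins, had interactions above 0 of 4.65 (SE 1.17) and 5.65 (SE 1.66), with an unadjusted p of 0.00151 and 0.00468 from edgeR. Metallothioneins are small cysteine-rich proteins that bind zinc and copper, and their genes are switched on by the metal sensor MTF1 at short metal response elements, and by glucocorticoids and inflammation. Mt1 and Mt2 are neighbours on chromosome 8 (mm10 94179089 to 94180327 and 94172618 to 94173567, plus strand). They are shown here with the RefSeq promoter window of each (GRCm38.p6, plus strand, 250 bases before to 50 after the start) because both genes had an interaction above 0. Capitals mark the metal response element core, TGCACNC or TGCGCNC read on either strand, with overlapping matches counted separately.
Mt1, chr8:94178839-94179138: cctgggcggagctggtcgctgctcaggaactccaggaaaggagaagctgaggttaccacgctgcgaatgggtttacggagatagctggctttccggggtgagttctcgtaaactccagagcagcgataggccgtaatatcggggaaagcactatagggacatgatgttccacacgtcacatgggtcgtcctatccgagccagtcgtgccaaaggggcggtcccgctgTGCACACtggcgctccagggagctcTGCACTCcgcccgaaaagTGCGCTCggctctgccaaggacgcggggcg
Mt2, chr8:94172368-94172667: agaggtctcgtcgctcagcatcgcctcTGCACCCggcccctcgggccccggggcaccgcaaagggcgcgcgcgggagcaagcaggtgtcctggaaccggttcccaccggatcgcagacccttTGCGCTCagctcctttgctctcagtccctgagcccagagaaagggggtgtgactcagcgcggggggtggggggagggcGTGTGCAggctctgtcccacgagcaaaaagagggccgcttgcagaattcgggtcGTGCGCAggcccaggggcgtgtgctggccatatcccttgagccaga
The Mt1 window held 3 matches and the Mt2 window 4. Of 32851 RefSeq windows of the same length 25.7% held at least 1 match, 1.97% held 3 or more and 0.517% held 4 or more. A match is a description of the letters and not a measured site.

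Mt1 was present at 5.46, 6.79 and 4.16 CPM in WT LS, 14.5, 10.9 and 8.64 in WT MS, 48.99, 8.85 and 259.6 in KO LS and 9.8, 5.8 and 10.4 in KO MS. The KO LS libraries were all above the WT LS libraries, with S12 far above S11, while on adequate selenium the genotypes overlapped. WT LS was also below WT MS in all 3 libraries, so the interaction of Mt1 held a low WT level as well as a high KO level on low selenium. Mt2 was present at 2.96, 1.61 and 0.831 CPM in WT LS, 3.27, 2.57 and 1.78 in WT MS, 28.7, 0.674 and 136 in KO LS and 1.79, 1.41 and 1.65 in KO MS. Here S10 and S12 were far above the rest and S11 was below every other library. Without S12 the interaction of Mt1 was 2.75 and that of Mt2 3.72. In the study's own qPCR of male livers the interaction of both genes was in the opposite direction, with KO below WT on low selenium. Of the 13 zinc handling genes tested, 10 had an interaction above 0 and 3 below, and only Mt1 and Mt2 had an unadjusted p under 0.05. The median of the list was 0.30 against 0.05 over all genes tested, and -0.16 without S7 and S8. Slc39a10, a zinc importer, was present at 6.83, 5.18 and 5.12 CPM in WT LS, 3.9, 3.8 and 3.43 in WT MS, 3.34, 4.52 and 7.18 in KO LS and 6.35, 4.71 and 6.71 in KO MS. WT LS was above WT MS in every library, KO and WT overlapped on low selenium, and the interaction was -0.84 (SE 0.44).

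**Figure D3:**
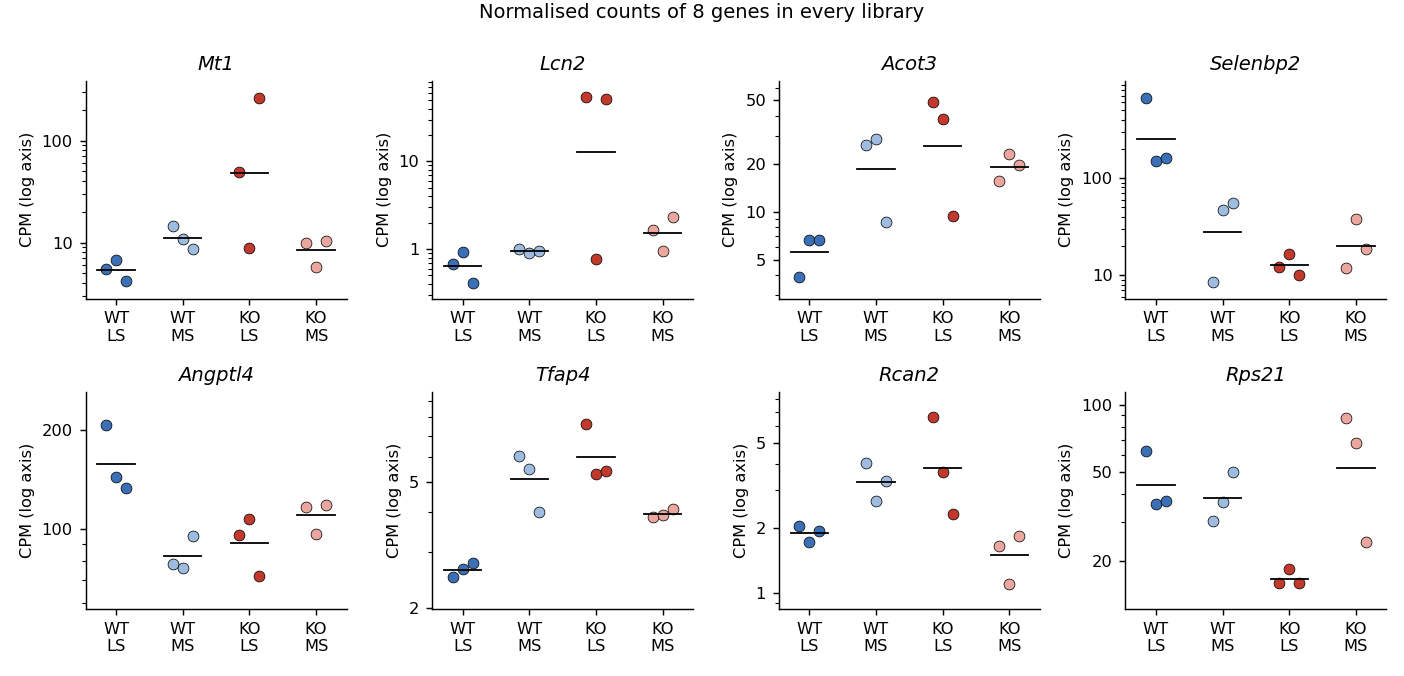
Normalised counts (CPM, log axis) of 8 genes in each of the 12 libraries, by group, with each point a library and each line the geometric mean of 3 libraries. Mt1 and Lcn2 were high in S10 and S12 and not in S11, Rcan2 and Angptl4 had WT and KO apart in opposite directions on the 2 diets, and Rps21 was highest in S7 and S8.

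Acute-phase genes, which hepatocytes secrete in inflammation, were high in S10, and some also in S12. Lipocalin 2 (Lcn2), which binds bacterial iron carriers, was present at 0.683, 0.92 and 0.416 CPM in WT LS, 1.01, 0.894 and 0.947 in WT MS, 53.96, 0.77 and 51.4 in KO LS and 1.66, 0.941 and 2.33 in KO MS. S10 and S12 stood far above every other library, S11 lay within the range of WT, and the interaction was 4.84 (SE 1.60). The serum amyloid genes Saa1 and Saa2, near-identical copies whose reads the counting may have divided between them, were high in S10 only. Saa1 was present at 7.29, 14.1 and 14.96 CPM in WT LS, 29.7, 23.8 and 29.2 in WT MS, 919, 16.4 and 24.2 in KO LS and 57.003, 31.4 and 18.8 in KO MS. Saa2 was present at 3.19, 4.37 and 5.82 CPM in WT LS, 7.67, 7.82 and 9.12 in WT MS, 751, 5.68 and 12.1 in KO LS and 17.3, 9.57 and 7.98 in KO MS. Their interactions of 4.33 (SE 1.55) and 5.32 (SE 1.80) were 0.35 and 0.49 without S10. Lbp, the lipopolysaccharide-binding protein, was present at 31.9, 39.2 and 41.97 CPM in WT LS, 52.3, 57.9 and 46.9 in WT MS, 100.2, 52.2 and 51.3 in KO LS and 34.2, 38.6 and 48.8 in KO MS. All KO LS libraries were above all WT LS libraries, with the genotypes overlapping on adequate selenium, and the interaction of 1.21 (SE 0.38) was 0.82 without S10. Of 26 acute-phase genes 18 were above 0, and 8 had an unadjusted p under 0.05, all above 0. Without S10 the list had 14 above and 12 below 0, and its median went from 0.45 to 0.09. Of the neutrophil markers, S100a8 and S100a9 had 40 and 49 counts in S12 against 0 to 13 elsewhere, and their part in these results was not tested.

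Selenbp2, a liver selenium-binding protein that is higher in male than in female mice, had the smallest p of the interactions below 0. It was present at 668, 149 and 162 CPM in WT LS, 8.55, 46.7 and 54.8 in WT MS, 12.3, 16.5 and 10.02 in KO LS and 11.7, 37.97 and 18.6 in KO MS. Every WT LS library was above every other library, S1 most, and KO LS lay within the range of the adequate-diet libraries. The interaction was -3.96 (SE 0.98), and without S1 it was -2.90. Of 20 selenoprotein genes 13 had an interaction below 0, and 3 of them had an unadjusted p under 0.05. Selenof, an endoplasmic reticulum selenoprotein, was present at 747, 263 and 238 CPM in WT LS, 192, 280.4 and 356 in WT MS, 172, 199 and 111 in KO LS and 643, 333 and 155 in KO MS. Gpx4, the phospholipid hydroperoxidase, was present at 338, 158 and 139.8 CPM in WT LS, 119, 169 and 237 in WT MS, 102, 129 and 126 in KO LS and 516, 235 and 108 in KO MS. Selenok, a membrane protein of the endoplasmic reticulum, was present at 52.6, 59.8 and 53.9 CPM in WT LS, 55.7, 58.2 and 77.9 in WT MS, 36.2, 41.95 and 25.8 in KO LS and 131, 69.7 and 44.1 in KO MS. For each of the 3 every KO LS library was below every WT LS library, and S7 was the highest KO library. Their interactions were -1.82 (SE 0.74), -1.54 (SE 0.69) and -1.03 (SE 0.47), and without S7 and S8 they were -0.55, -0.16 and -0.16. The median over the selenoproteins was -0.55, and -0.03 without S7 and S8. Among 12 genes of selenocysteine synthesis and selenium supply the median was -0.06, and 2 had an unadjusted p under 0.05, Selenbp2 and Trnau1ap. Trnau1ap, which binds the selenocysteine tRNA, was present at 44.6, 18.2 and 18.01 CPM in WT LS, 12.8, 18.2 and 25.7 in WT MS, 11.6, 13.9 and 10.4 in KO LS and 37.5, 22.7 and 12.5 in KO MS, with an interaction of -1.52 (SE 0.61) that was -0.57 without S7 and S8 and -0.97 without S1.

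Many sex-biased genes of mouse liver are set by the pattern of growth hormone. Of 11 genes known to be higher in males 10 had an interaction below 0, 2 of them at an unadjusted p under 0.05 (Selenbp2 and Ugt2b38), with a median of -1.59. Of 19 major urinary protein genes, which encode pheromone carriers made by male liver, 18 were below 0 and 1 had an unadjusted p under 0.05. Of 11 genes known to be higher in females 4 had enough counts to be tested, all above 0 and 3 at an unadjusted p under 0.05. Ugt2b38, a glucuronosyltransferase, was present at 119, 34.5 and 39.8 CPM in WT LS, 8.68, 12.1 and 23.6 in WT MS, 5.42, 5.39 and 0.334 in KO LS and 13.1, 13.6 and 3.11 in KO MS. WT LS was above all other libraries, and S12 had almost none. The interaction was -3.56 (SE 1.11), and -1.94 without S7 and S8. Mup20, the male pheromone darcin, had an interaction of -2.05 (SE 1.10) and ranged from 895 CPM in S12 to 26078 CPM in S7. Its interaction was -1.29 without S7, -0.35 without S7 and S8 and 0.13 without S7, S8 and S12. Mup18 was present at 232, 22.9 and 44.5 CPM in WT LS, 5.03, 13.1 and 35.4 in WT MS, 5.69, 9.81 and 0.167 in KO LS and 19.5, 7.84 and 5.45 in KO MS, with S1 highest and S12 lowest. Its interaction was -3.57 (SE 1.48), and -2.02 without S1. Major urinary protein genes are near-identical copies, so counts of a single member are uncertain and the 19 genes are not separate observations. Their summed level was 86037 CPM in S1, 1106 CPM in S12 and 13343 to 54777 CPM in the other libraries. On the female side, Cyp17a1, the steroid hydroxylase and lyase, was present at 10.7, 16.6 and 18.8 CPM in WT LS, 90.3, 26.4 and 38.2 in WT MS, 30.1, 10.1 and 41.96 in KO LS and 19.05, 13.3 and 12.1 in KO MS. WT MS was above WT LS and above KO MS in every library, and the interaction was 2.63 (SE 0.71). Cyp2b9 had 0, 1 and 1 counts in WT LS and 1702 in S12, where its level was 94.7 CPM, so its fitted value of 8.99 depends on the prior count. Cyp2a4, a steroid hydroxylase, was present at 0.455, 0.69 and 1.52 CPM in WT LS, 19.4, 2.46 and 1.78 in WT MS, 11.8, 7.99 and 485 in KO LS and 32.8, 8.16 and 4.57 in KO MS, with an interaction of 6.54 that was 2.42 without S12. Without S12 the male-biased list had 7 of 11 below 0 and a median of -1.09, and without S1 and S12 its median was -0.78. The medians without S7 and S8 were -1.07 for the male-biased genes and -1.002 for the major urinary proteins, with 0 of the latter at an unadjusted p under 0.05.

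Among genes of lipid handling, 5 of 23 fatty acid oxidation genes and 3 of 16 lipid droplet genes had an unadjusted p under 0.05, all above 0, and WT LS was the lowest group for the 3 genes given first. Acot3, a peroxisomal acyl-CoA thioesterase and a PPARalpha target, was present at 3.87, 6.67 and 6.65 CPM in WT LS, 26.3, 28.6 and 8.64 in WT MS, 48.6, 38.5 and 9.46 in KO LS and 15.6, 22.9 and 19.8 in KO MS. All KO LS libraries were above all WT LS libraries, the genotypes overlapped on adequate selenium, and WT LS was below all other libraries. The interaction was 2.59 (SE 0.76), and 3.001 without S12. Vldlr, the receptor for very-low-density lipoprotein, was present at 1.14, 1.84 and 1.11 CPM in WT LS, 8.55, 3.13 and 2.72 in WT MS, 5.88, 8.27 and 4.62 in KO LS and 4.14, 2.51 and 6.23 in KO MS, with WT LS below all other libraries and an interaction of 2.28 (SE 0.69). Pparg, the lipogenic receptor PPARgamma, was present at 1.37, 1.96 and 2.91 CPM in WT LS, 8.43, 4.02 and 5.33 in WT MS, 8.14, 8.37 and 20.5 in KO LS and 9.66, 3.14 and 13.8 in KO MS. WT LS was below every other library, KO and WT overlapped on adequate selenium, and the interaction was 1.94 (SE 0.75). Cyp4a14, a fatty acid hydroxylase, had an interaction of 3.46 (SE 1.22) with 2.76 CPM in S2 and 383 CPM in S12. For Gpat3, which makes lysophosphatidic acid, and Acot2, a mitochondrial thioesterase, S12 stood at 40.7 and 68.6 CPM, and their interactions of 2.61 and 2.69 were 1.15 and 1.001 without it. Of 23 fatty acid oxidation genes 18 were above 0 (5 at an unadjusted p under 0.05, median 0.49), and of 16 lipid droplet genes 11 were (3, median 0.49). Without S7 and S8 those counts were 14 of 23 and 14 of 17, with 1 gene of each list at an unadjusted p under 0.05. Of 20 lipogenic genes 0 had an unadjusted p under 0.05 and the median was 0.16.

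Angptl4, also a PPAR target, had an interaction below 0. It encodes an inhibitor of lipoprotein lipase that is induced in fasting, and it lies on chromosome 17. Its level was 206, 144 and 133 CPM in WT LS, 78.4, 76.2 and 95.7 in WT MS, 96.4, 107 and 72.3 in KO LS and 117, 96.5 and 119 in KO MS. On low selenium every KO library was below every WT library, and on adequate selenium every KO library was above every WT library. The interaction was -1.21 (SE 0.34), and between -1.36 and -1.01 over the 12 libraries left out in turn.

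WT and KO did not overlap in 2996 genes (24.9%) on low selenium and in 567 (4.72%) on adequate selenium. In 31 genes (0.258%) they were apart on both diets in opposite directions, 16 (0.133%) with KO higher on low selenium and 15 (0.125%) with KO lower. These 31 include 25 of the 808 genes. With 3 libraries a group, some genes are apart with no effect of genotype, so these counts describe the genes and test nothing. Rcan2, a calcineurin inhibitor on chromosome 17, was present at 2.05, 1.73 and 1.94 CPM in WT LS, 4.03, 2.68 and 3.32 in WT MS, 6.6, 3.66 and 2.34 in KO LS and 1.66, 1.1 and 1.85 in KO MS. Its interaction was 2.23 (SE 0.58), with KO above WT on low selenium and below WT on adequate selenium. Incenp, a component of the chromosomal passenger complex that acts in mitosis, was present at 0.683, 1.27 and 1.11 CPM in WT LS, 1.38, 1.79 and 1.3 in WT MS, 1.72, 1.73 and 4.62 in KO LS and 0.828, 0.784 and 0.584 in KO MS, with an interaction of 2.40 (SE 0.69). Zfp11, a zinc finger protein, was present at 1.14, 0.92 and 1.11 CPM in WT LS, 2.39, 2.35 and 2.25 in WT MS, 3.53, 2.02 and 2.23 in KO LS and 1.66, 1.57 and 1.95 in KO MS. WT LS was the lowest group and KO LS and WT MS overlapped, for an interaction of 1.72 (SE 0.49). Dtx4, a ubiquitin ligase of the Deltex family, was present at 6.6, 6.9 and 9.28 CPM in WT LS, 9.81, 9.72 and 10.4 in WT MS, 11.1, 10.6 and 15.7 in KO LS and 7.59, 5.65 and 8.27 in KO MS, and Net1, an exchange factor for RhoA, at 20.9, 30.6 and 35.3 CPM in WT LS, 48.6, 45.6 and 43.5 in WT MS, 44.5, 41.8 and 48.03 in KO LS and 42.6, 29.96 and 35.7 in KO MS. Their interactions were 1.19 (SE 0.35) and 0.97 (SE 0.31).

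In the other direction, KO was lower than WT on low selenium and higher on adequate selenium. Fam167b was present at 4.33, 5.06 and 4.43 CPM in WT LS, 2.64, 3.35 and 3.32 in WT MS, 2.26, 2.5 and 1.61 in KO LS and 5.8, 5.18 and 3.41 in KO MS, with an interaction of -1.74 (SE 0.43). Kctd12b, on the X chromosome, was present at 10.02, 5.18 and 4.71 CPM in WT LS, 3.65, 3.91 and 3.67 in WT MS, 3.34, 2.89 and 4.12 in KO LS and 6.21, 6.43 and 5.25 in KO MS. Its interaction was -1.57 (SE 0.44), and -1.19 without S1, the library with the highest value. Cyp1a1, the dioxin-inducible monooxygenase, was present at 3.64, 2.76 and 2.91 CPM in WT LS, 1.01, 1.23 and 1.18 in WT MS, 1.45, 1.64 and 0.334 in KO LS and 2.76, 1.88 and 1.46 in KO MS. WT LS was above WT MS in every library, S12 was the lowest, and the interaction was -2.29 (SE 0.71). Ip6k2, an inositol hexakisphosphate kinase, was present at 22.5, 25.1 and 28.4 CPM in WT LS, 15.9, 15.5 and 17.4 in WT MS, 18.2, 19.3 and 12.97 in KO LS and 20.01, 22.4 and 19.7 in KO MS, with an interaction of -0.94 (SE 0.30). Each of the 10 genes with opposite differences named here, Angptl4 included, kept the sign of its interaction in every alternative fit that could test it. They were chosen by p on the same libraries, so this is no separate evidence. Most of the 808 genes kept their sign as well, 760 of them with the level of Rn45s in the model. A further 51 genes (0.425%) had WT and KO apart in the same direction on both diets. Of these 2 had an unadjusted interaction p under 0.05. Wdfy1, an endosomal adaptor of Toll-like receptor signalling that lies on chromosome 1 like Scly, was present at 17.3, 5.64 and 5.82 CPM in WT LS, 20.4, 27.03 and 21.4 in WT MS, 36.9, 37.5 and 38.1 in KO LS and 27.5, 34.2 and 40.2 in KO MS. Its KO libraries overlapped between diets and its WT libraries were all lower on low selenium, so the difference was 2.01 on low and 0.57 on adequate selenium, with an interaction of 1.44 (SE 0.50). Gm16551, a predicted gene, had a difference of -1.69 on low and -0.41 on adequate selenium and an interaction of -1.28 (SE 0.55).

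The smallest p of all belonged to Tfap4, which encodes AP-4, a transcription factor of the basic helix-loop-helix class that binds E-boxes. It was present at 2.5, 2.65 and 2.77 CPM in WT LS, 6.04, 5.47 and 4.03 in WT MS, 7.59, 5.29 and 5.4 in KO LS and 3.86, 3.92 and 4.09 in KO MS. WT LS was below all other libraries, KO LS was above WT LS and above KO MS, and the interaction was 1.58 (SE 0.38) with an unadjusted p of 0.0012 from edgeR. Slc3a1, the heavy subunit of a transporter for cystine and dibasic amino acids, was present at 35.7, 33.6 and 35.3 CPM in WT LS, 65.7, 46.1 and 62.05 in WT MS, 117, 45.03 and 59.5 in KO LS and 33.8, 47.5 and 31.3 in KO MS. The interaction was 1.71 (SE 0.45), and 1.21 without S10, the highest library. Slc16a5, a monocarboxylate transporter, had an interaction of 2.94 (SE 0.83), from 1.59 CPM in S1 to 31.4 CPM in S12, and 1.89 without S12. Gas6, the ligand of the TAM receptor kinases, was present at 23.9, 16.9 and 19.5 CPM in WT LS, 33.1, 25.7 and 25.5 in WT MS, 74.8, 26.7 and 76.7 in KO LS and 22.1, 16.002 and 33.6 in KO MS. S10 and S12 were high and S11 lay in the range of WT MS, for an interaction of 1.80 (SE 0.52). Xlr3a, an X-linked member of a lymphocyte gene family with close copies, had an interaction of -3.19 (SE 0.90), and its lowest library was S6 at 0.474 CPM. Of the 20 genes that held in every alternative, 4 lay outside the rule for naming and were chosen after their values were seen. They were Oasl1, an interferon-induced gene (1.12, SE 0.36), Zcwpw1, a histone reader (1.67, SE 0.59), Mcm3, a subunit of the replicative helicase (1.24, SE 0.44), and Mmrn2, an endothelial matrix protein (-0.82, SE 0.29).

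Immediate-early genes, which respond within minutes to stress or handling of tissue, had 19 of 22 tested members above 0, 4 of them at an unadjusted p under 0.05, and a median of 0.93. Myc, the growth-promoting transcription factor, was present at 2.5, 2.3 and 2.22 CPM in WT LS, 1.76, 26.4 and 8.41 in WT MS, 7.32, 1.06 and 33.6 in KO LS and 1.93, 4.39 and 2.14 in KO MS. S5 and S12 were far above the other libraries of their groups. Plk3, a stress-induced kinase, was present at 10.02, 23.005 and 17.6 CPM in WT LS, 18.6, 58.1 and 32.9 in WT MS, 42.8, 9.72 and 58.5 in KO LS and 6.76, 12.1 and 23.2 in KO MS, and S7 and S8 lay below every WT MS library. Gadd45a, a growth arrest gene, was present at 5.69, 2.65 and 4.57 CPM in WT LS, 8.43, 10.1 and 4.85 in WT MS, 9.58, 7.6 and 9.57 in KO LS and 7.59, 7.53 and 5.84 in KO MS, with every KO LS library above every WT LS library. The interactions were 4.73 (SE 1.44), 2.50 (SE 0.86) and 1.24 (SE 0.46), and that of Myc was 2.97 without S12. The summed level of the list was 579 to 725 CPM in WT MS, 383 to 486 in WT LS, 264 to 439 in KO MS and 372 to 641 in KO LS. The lowest pair was S7 and S8, and without them the median was 0.77. It was 0.55 without S12 and 1.51 without S9, where 14 genes had an unadjusted p under 0.05. Without S7, S8 and S12 11 of 22 were above 0, with a median of 0.00042.

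Ribosomal protein genes, whose transcripts are short, had more members below 0 than any other list. Of 79 tested genes for cytosolic ribosomal proteins, the building blocks of the ribosome, 77 had an interaction below 0 and 47 had an unadjusted p under 0.05, against 4.63% of all genes in that direction. The list median was -1.07. Rps21 was present at 62.2, 36.1 and 37.3 CPM in WT LS, 30.2, 36.98 and 50.2 in WT MS, 15.9, 18.4 and 15.9 in KO LS and 87.9, 67.8 and 24.3 in KO MS. KO LS was below every other library, S7 and S8 were the highest, and S9 lay below WT. Rpl9 was present at 131, 96.96 and 89.6 CPM in WT LS, 69.4, 84.9 and 111 in WT MS, 42.7, 48.4 and 34.1 in KO LS and 272, 156 and 52.1 in KO MS, with the same libraries high and low. Their interactions were -2.04 (SE 0.55) and -2.20 (SE 0.62), and without S7 and S8 -0.76 and -0.60. All 11 tested genes for small nucleolar and Cajal body RNAs, which guide the modification of other RNAs and are not polyadenylated as a rule, were below 0 with a median of -2.93, and 10 had an unadjusted p under 0.05. Among them were Scarna6 (-2.28, SE 0.61), Snora7a (-4.21, SE 1.13) and Snora78 (-3.56, SE 1.03). With S7 and S8 omitted the list median was -1.16 with 1 of 15 genes tested at that level, and these 3 genes were at -0.69, -2.11 and -1.74. With the level of Rn45s in the model the list median was -0.71 with 0 at that level. Of 119 small nucleolar and Cajal body RNA genes listed, 11 had enough counts to be tested, and a gene could pass through 1 group alone. Snora7a was near the floor, with 26, 11 and 12 counts in WT LS and 2, 3 and 4 in KO LS. In WT MS it had 6, 5 and 10 counts, and in KO MS 8, 18 and 3. Nuclear genes of the respiratory chain, such as Ndufb2 of complex I (-1.99, SE 0.69), were below 0 in 73 of 76 cases, with 20 at an unadjusted p under 0.05. Without S7 and S8 44 of 76 were below 0, 0 had an unadjusted p under 0.05, the median went from -0.68 to -0.046 and Ndufb2 was at -0.38. Without S12 2 had an unadjusted p under 0.05. Ribosomal protein genes summed to 20079 CPM in S7 and 12999 in S8, to 7276 in S9, and to 5839 to 7332 in KO LS. Without S7 and S8, 62 of 79 were below 0, 0 had an unadjusted p under 0.05 and the median was -0.21. With the level of Rn45s in the model, 65 were below 0 with a median of -0.17, and the respiratory chain list had a median of 0.02.

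**Figure D4:**
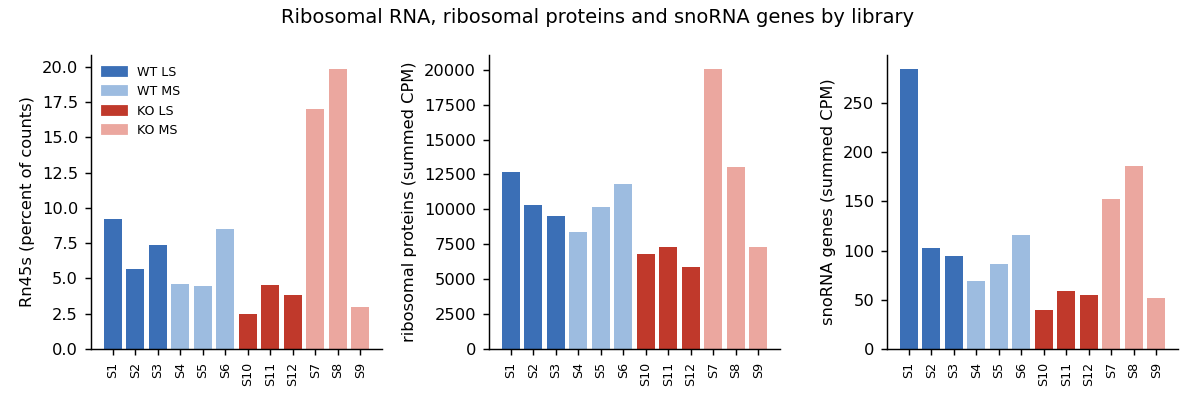
Share of counts on Rn45s (percent), summed CPM of 79 ribosomal protein genes and summed CPM of 11 snoRNA genes in each library, coloured by group. S7 and S8 were high in all 3 panels, S1 was highest for the snoRNA genes, and the 3 KO LS libraries and S9 were the 4 lowest for the ribosomal protein and snoRNA genes.

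Transcript length ran through the whole table. Genes were divided by transcript length into 4 classes of equal number. In the class with the shortest transcripts (up to 2178.5 nt by GENCODE), 70.6% had an interaction below 0 and the median was -0.37. In the class with the longest, 26.5% were below 0 and the median was 0.31. The share at an unadjusted p under 0.05 was 11.4% in the shortest class and 3.74% in the longest. Spearman's rho between interaction and length was 0.37 over 11862 genes that share the same 12 libraries, which is a description. With a trend over length and GC content removed from each library, 739 genes had an unadjusted p under 0.05, and 478 of them were among the 808. The ribosomal protein median was then -0.58.

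Markers of other liver cells had interactions below 0 in part. Of 14 markers of macrophages, chiefly Kupffer cells, 12 were below 0 with 4 at an unadjusted p under 0.05, and of 9 endothelial markers 8 were, with 3. In bulk tissue fewer cells of a type and less RNA per cell cannot be told apart. Clec4f, the lectin of Kupffer cells, was present at 158, 88.7 and 103 CPM in WT LS, 82.3, 101 and 106 in WT MS, 60.7, 65.3 and 26.6 in KO LS and 213, 153 and 70.5 in KO MS. S7 and S8 were above WT MS, and KO LS was below every WT library. Its interaction was -1.79 (SE 0.57), and -0.76 without S7 and S8. Vsig4, a complement receptor of Kupffer cells, had -1.14 (SE 0.40), the sinusoidal endothelial lectin Clec4g -1.38 (SE 0.49) and the stellate cell enzyme Lrat, which stores retinol, -1.18 (SE 0.42). Lrat was the only 1 of 9 stellate markers at an unadjusted p under 0.05. Of those 9 markers 5 were above 0 and 4 below, with a median of 0.26. Wfdc17 and Lilra5, genes of myeloid cells, had -2.49 (SE 0.65) and -2.12 (SE 0.63). Omission of S7 and S8 left Wfdc17 at -1.09, Lilra5 at -0.83 and Clec4g at -0.56, where 0 of the endothelial markers had an unadjusted p under 0.05. Without S7 and S8 the macrophage list had 11 of 14 below 0, 0 at an unadjusted p under 0.05 and a median of -0.23 against -0.97. The summed macrophage level was 838 CPM in S7, 604 in S8 and 346 to 623 in the others. All 7 erythroid genes were below 0, with a median of -1.07 that was 0.01 without S7 and S8. The 4 tested bile duct markers were all above 0 with 0 at an unadjusted p under 0.05, and summed to 284 CPM in S12 and 26.9 to 45.5 elsewhere.

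The genes that the study also measured by qPCR were chosen on these same samples, so their counts are not independent evidence. Of 15 such genes 10 had an unadjusted p under 0.05 for the interaction, 7 above 0 and 3 below, and none was called by edgeR with all 12 libraries. When S7 and S8 were left out 3 were at that level above 0 and 2 below. limma-voom with sample quality weights called 4 of the 15 above 0 and 2 below, and edgeR without S11 called Lcn2, Mt1 and Mt2. Besides Mt1, Mt2, Lcn2, Acot3, Pparg and Selenbp2, these were Abcb1a, Ppl, Angptl6 and Arl4d. Abcb1a, a drug efflux pump, was present at 1.14, 1.84 and 1.8 CPM in WT LS, 4.03, 3.13 and 1.42 in WT MS, 6.6, 5.29 and 24.7 in KO LS and 2.9, 5.02 and 7.005 in KO MS. KO LS was above all WT LS libraries, S12 most, and the interaction of 2.09 (SE 0.85) was 1.01 without it. Ppl, which encodes periplakin of cell junctions, was present at 2.5, 3.34 and 3.74 CPM in WT LS, 4.03, 1.56 and 1.54 in WT MS, 20.9, 4.33 and 20.6 in KO LS and 2.35, 2.82 and 4.09 in KO MS, high in S10 and S12, with an interaction of 1.84 (SE 0.78). Angptl6, a secreted angiopoietin-like factor, was present at 26.6, 14.4 and 16.8 CPM in WT LS, 15.98, 11.5 and 13.6 in WT MS, 7.05, 9.72 and 4.34 in KO LS and 15.2, 16.3 and 11.1 in KO MS. KO LS was below every other library, and the interaction was -1.50 (SE 0.45). Arl4d, a small GTPase, was present at 47.4, 44.1 and 44.05 CPM in WT LS, 35.6, 15.1 and 35.8 in WT MS, 8.32, 11.4 and 10.5 in KO LS and 9.52, 9.88 and 21.5 in KO MS. KO lay below WT on low selenium in every library, the genotypes overlapped on adequate selenium through S5 and S9, and the interaction was -1.09 (SE 0.51). It was -0.59 without S9 and -1.75 without S7 and S8. The other 5 were Abcc3, an export pump for conjugates, Inhbe, a secreted activin subunit, Ces1g, a lipid esterase, Eif4ebp3, a translation repressor, and Slc25a25, a mitochondrial ATP carrier. Their 95% intervals of the interaction were -0.69 to 1.41 for Abcc3, -0.66 to 1.51 for Inhbe, -1.42 to 0.34 for Ces1g, -2.03 to 0.32 for Eif4ebp3 and -0.23 to 1.93 for Slc25a25. Each interval held 0 and reached past 1 log2 unit on 1 side. In the study's male qPCR, KO was below WT on low and above it on adequate selenium for Mt1, Mt2, Abcb1a, Abcc3, Ces1g and Acot3. For Mt1, Mt2, Abcb1a, Abcc3 and Acot3 that is opposite in direction to the interaction here. The interaction of Abcc3 here was 0.08 to 0.85 with each library left out in turn, and its interval held 0. By qPCR Arl4d and Ces1g, like here, had interactions below 0. The genotype differences of Arl4d were unlike those here. By qPCR it was alike in both genotypes on low selenium and higher in KO on adequate selenium. Here KO was below WT on low selenium, and on adequate selenium S7 and S8 lay below every WT MS library. The study's 2-way ANOVA gave Acot3 and the remaining qPCR genes, such as Lcn2, Pparg and Selenbp2, no interaction p under 0.05. Slc25a25 was present at 114, 217 and 149.9 CPM in WT LS, 360.4, 366 and 506 in WT MS, 91.2, 112 and 156 in KO LS and 132, 131 and 246 in KO MS, with WT MS above all other libraries and an interaction of 0.85 (SE 0.47) that was 0.30 without S7 and S8.

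Hist1h4n, a histone gene with many near-identical copies, had 2, 1 and 0 counts in KO MS and 14 to 46 in KO LS, against 17 to 188 in WT. The KO MS libraries were below all others, KO LS and WT LS overlapped in CPM, and the fitted interaction of 3.05 depends on the prior count and was 6.46 without S7 and S8. Of 50 histone genes 29 were below 0 and 5 had an unadjusted p under 0.05.

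The other lists are given by their counts and medians, beside a median of 0.05 over all genes tested. Of 24 targets of the antioxidant factor NRF2, 21 were above 0 with 3 at an unadjusted p under 0.05 and a median of 0.50, which was 0.26 without S12. The 3 were the glutathione transferase Gstm3 (2.29, SE 0.94), Ugdh, which makes UDP-glucuronate (1.06, SE 0.46), and Pgd of the pentose phosphate pathway (1.35, SE 0.50). Omission of S12 left Gstm3 at 0.55 and Ugdh at 0.41. Of 17 targets of the amino acid stress factor ATF4, 14 were above 0 with a median of 0.95, which was -0.01 without S12. Of 19 iron genes 16 were above 0, with a median of 0.35. In that list 2 had an unadjusted p under 0.05, the metalloreductase Steap4 (0.84, SE 0.32) and Smad7, a brake on BMP signalling (1.01, SE 0.41). Of 17 clock genes 13 were above 0, with a median of 0.31, and 1 had an unadjusted p under 0.05, the repressor Nfil3 (0.99, SE 0.44). Of 19 bile acid genes 13 were below 0, with a median of -0.42. In that list 1 had an unadjusted p under 0.05, Baat, which conjugates bile acids to taurine (-1.49 (SE 0.67), and -0.48 without S7 and S8). Of 22 cholesterol synthesis genes 12 were below 0, with a median of -0.14, and of 17 endoplasmic reticulum chaperone genes 11 were, with a median of -0.15. In each list 1 had an unadjusted p under 0.05, the sterol oxidase Msmo1 (-1.04, SE 0.44) and Creld2 (-1.003, SE 0.38). Among 39 ABC transporters Abcb1a and Abcg3 (-1.06, SE 0.46) did, and the list median was 0.14. Of 25 targets of the xenobiotic receptors PXR and CAR 15 were above 0, and of 16 fasting genes 10, with medians of 0.29 and 0.38. For 10 pericentral and 10 periportal genes, which mark the 2 ends of the liver lobule, the medians were -0.10 and 0.36 and 0 had an unadjusted p under 0.05. For 21 genes of glycine and methionine metabolism and 11 of the urea cycle 0 did, with medians of 0.28 and -0.03.

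**Figure D5:**
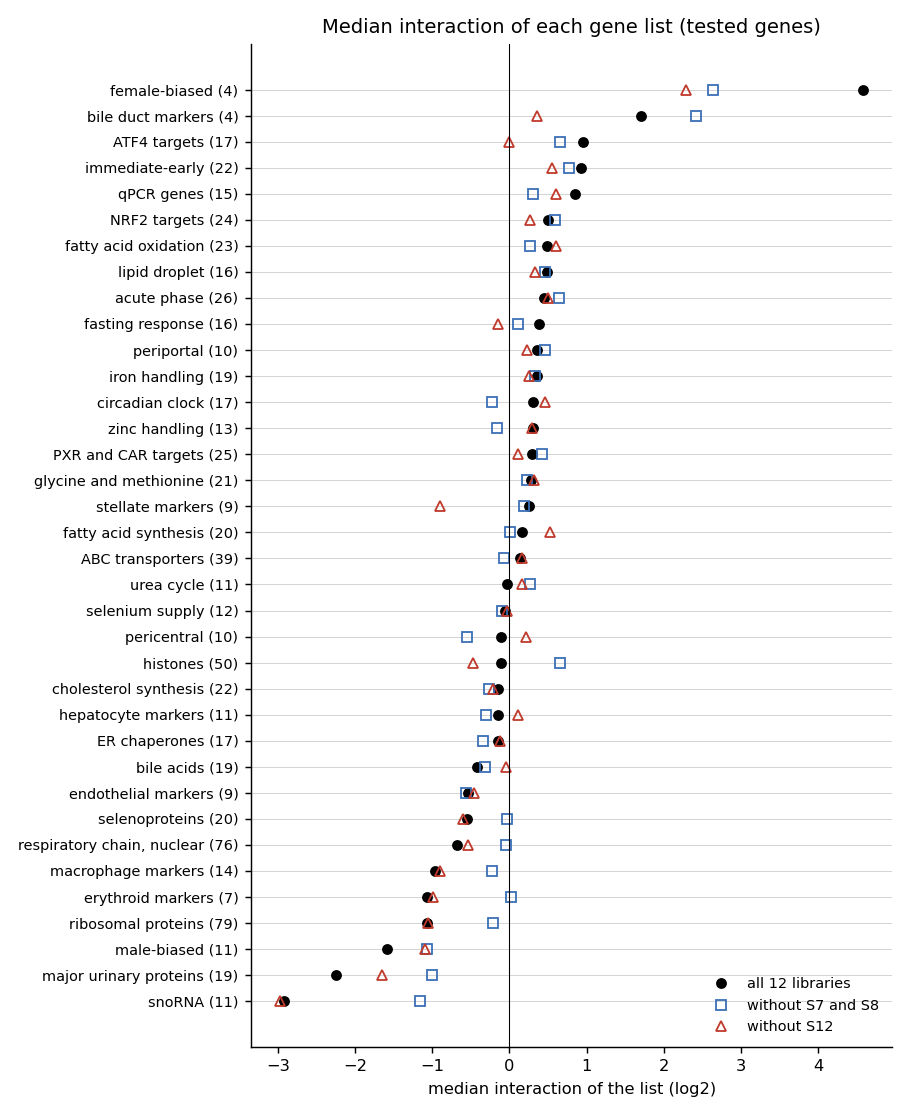
Median interaction (log2) of the tested genes of each list with at least 4 such genes, number of genes in brackets, with all 12 libraries (black), without S7 and S8 (blue squares) and without S12 (red triangles). Ribosomal protein, respiratory chain, erythroid, macrophage and selenoprotein lists lay nearer 0 without S7 and S8, and bile duct, ATF4 and female-biased lists nearer 0 without S12.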

How the data were processed

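RNA from mouse liver was sequenced in 12 directional poly(A) libraries on a NextSeq 500. Per the study's methods, reads were trimmed with Cutadapt, aligned with STAR to mm10 and assigned to genes by the E/M method of Partek. The deposited gene table holds the authors' estimated counts, unfiltered and not normalized, of which 89.8% were whole numbers (tolerance 1e-09). They were rounded here. E/M counting divides reads shared by near-identical genes. The deposited table of p-values, false discovery rates and signed fold changes from the authors' comparisons was not used. Library columns name a group and not a sample. All 26 symbols stored as dates were named by their position, and every value column had a group (0 without).

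Counts were analysed with edgeR 4.0.16 (R 4.3.3): filterByExpr with a minimum of 10, TMM factors, 4 group means, and the quasi-likelihood test of the interaction over all 12 libraries, with Benjamini-Hochberg adjustment over 12009 genes at a threshold of 0.05. CPM values use TMM library sizes. Alternatives were DESeq2 1.42.0, limma 3.58.1 (voom with and without sample quality weights), other normalizations, filters and estimators, removal of Rn45s or its level as a covariate, removal of a length and GC trend per library, and omission of libraries. The fit without legacy estimation and the one without S1 and S12 were chosen after seeing the data. Each test was also run on simulated counts. These had the same spread in every gene and no outlying library, unlike the data here, so they do not bear on the calls above. Promoter windows came from RefSeq and transcript lengths from GENCODE.

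Totals of 4797067 to 11762165 counts per library limit the precision of low genes. Named genes were Scly, the 15 qPCR genes, the 12 smallest p in each direction at a mean of at least 1 CPM, up to 10 genes with opposite and up to 5 with equal directions without overlap, up to 4 members of each list by p, up to 10 called most often in alternatives, and Hist1h4n. Members and lists were chosen with earlier results of these data known.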

Additional observations from a re-analysis of the deposited data

How the results depend on the processing

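The number of genes called was 0 in every setting except limma-voom with sample quality weights (2081) and the omission of single libraries (0 to 3). Genes at an unadjusted p under 0.05 numbered 4263 with those weights, 138 without S7 and S8, 281 without S7, S8 and S12, 325 without S1 and S12, 100 with Rn45s as a covariate, and 299 to 3594 without single libraries, against 808. Of the 100 genes 39, and of the 138 genes 53, were among the 808. Genes with opposite genotype differences numbered 31, 41 to 1335 without single libraries, and 209 when a fold of 1.5 on each diet replaced the lack of overlap. Leaving out a library cannot lower the count without overlap, so its rise from 31 was fixed in advance and only its size differs by library. The planned legacy estimation gave the same 808 genes, being the default of the edgeR version used. No paired analysis was possible because the count columns carry no replicate numbers of the samples. A setting with a lone KO MS library assumes that it varies like the other groups. Genes with few counts were limited by depth.

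Values are list medians or gene interactions on the log2 scale. With DESeq2 the sign turned for stellate markers (-0.31). With voom quality weights the sign turned for ABC transporters (-0.047), ER chaperones (0.22), pericentral (0.31), stellate markers (-0.59). With voom without weights the sign turned for stellate markers (-0.24). With no filter the sign turned for neutrophil markers (-0.51). With at least 10 counts in every library the sign turned for PXR and CAR targets (-0.11), cholesterol synthesis (0.021), selenium supply (0.0088). Without S7 and S8 the sign turned for Abcc3 (-0.31), ABC transporters (-0.071), circadian clock (-0.23), erythroid markers (0.015), histones (0.65), urea cycle (0.26), zinc handling (-0.16). Without S7, S8 and S12 the sign turned for Abcc3 (-0.13), Mup20 (0.13), Selenok (0.018), ABC transporters (-0.12), ATF4 targets (-0.014), erythroid markers (0.17), fasting response (-0.22), histones (0.22), nuclear respiratory chain (0.13), selenium supply (0.075), selenoproteins (0.058), stellate markers (-0.55), urea cycle (0.47). With the Rn45s covariate the sign turned for Abcc3 (-0.087), Gpx4 (0.10), Inhbe (-0.074), ABC transporters (-0.080), circadian clock (-0.28), fasting response (-0.062), fatty acid synthesis (-0.044), histones (0.53), nuclear respiratory chain (0.024), selenoproteins (0.016), urea cycle (0.16), zinc handling (-0.060). With the length and GC trend removed the sign turned for Abcc3 (-0.0075), Inhbe (-0.028), ABC transporters (-0.0075), fatty acid synthesis (-0.024), hepatocyte markers (0.048), histones (0.34), stellate markers (-0.17). Without S1 and S12 the sign turned for ER chaperones (0.24), fasting response (-0.22), neutrophil markers (-0.083), pericentral (0.16), stellate markers (-0.69). Across single omitted libraries the sign turned at least once for ER chaperones (-0.29 to 0.093), neutrophil markers (-0.076 to 1.16), stellate markers (-0.90 to 0.53), cholesterol synthesis (-0.41 to 0.25), urea cycle (-0.17 to 0.17), Inhbe (-0.043 to 0.66), fatty acid synthesis (-0.11 to 0.53), ABC transporters (-0.053 to 0.34), circadian clock (-0.014 to 0.89), histones (-0.48 to 0.11), pericentral (-0.41 to 0.21), ATF4 targets (-0.0075 to 1.32), fasting response (-0.14 to 0.53), hepatocyte markers (-0.37 to 0.11). The cause was not tested.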
